A study of Mus with 4 samples.

Results

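Neutrophils made up 212 of the 35113 barcodes kept from 4 single-cell libraries of mouse dorsal root ganglia (DRGs), the clusters of sensory neurons and their companion cells beside the spinal cord. The members were chosen by their measured UMIs. A barcode was taken as a neutrophil when it held more than 500 genes and less than 20% mitochondrial UMIs (unique molecular identifiers, each standing for 1 captured RNA molecule), at least 20 UMIs of S100a8+S100a9 that came to at least 1% of its UMIs, fewer than 6 UMIs of C1qa+C1qb+C1qc and fewer than 20 UMIs of Snap25+Uchl1+Tubb3. The libraries came from wildtype male C57BL/6J mice aged 8 weeks at dissociation. In the CCI group (chronic constriction injury) the left sciatic nerve had been loosely ligated and the left L4 and L5 DRGs were taken 3 d later, and the CON group was naïve. Each group had 2 libraries, and the sources used here do not give the number of mice behind a library, so the spread between libraries may be partly technical. The labels call the cell type of all 4 libraries neurons, whereas the barcodes described here carried neutrophil genes. No doublet caller was run, and the limits on C1q and on neuron genes removed barcodes that joined neutrophil genes with those of macrophages or neurons.

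Neutrophils are short-lived phagocytes that are made in the bone marrow and reach tissues through the blood. They pack their granules in a fixed order as they mature: primary granules with Mpo and Elane in dividing precursors, then secondary granules with Ltf, Camp and Ngp, then tertiary granules with Mmp9. The mature cell leaves the marrow when Cxcr2, a receptor for chemokines such as Cxcl2, outweighs the marrow-retaining receptor Cxcr4, and it can make the inflammatory cytokine Il1b. S100a8 and S100a9, the 2 subunits of calprotectin, fill the cytosol at most of these stages. On the mouse build GRCm38.p6, S100a8 lies on chromosome 3 from 90669071 to 90670034 and S100a9 on chromosome 3 from 90692630 to 90695721. Camp, the gene of the antimicrobial cathelicidin, lies on chromosome 9 from 109847377 to 109849456, and Ngp, neutrophilic granule protein, on chromosome 9 from 110419808 to 110423012. Cxcr2 lies on chromosome 1 from 74153994 to 74161246 and Il1b on chromosome 2 from 129364569 to 129371164.

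The libraries were of unequal size. The CCI libraries kept 11155 and 10602 barcodes, against 10743 and 2613 in the CON libraries, and CON replicate 2, the smallest, also had the highest median UMI count per kept barcode (8352, against 2508 to 4552 in the other 3). The neutrophils held a median of 3085 and 3756 UMIs in CCI replicates 1 and 2, against 2683 and 5212.5 UMIs in CON replicates 1 and 2, and their summed UMIs were 145410 and 378971 in CCI, against 292321 and 77042 in CON. CON replicate 2 therefore rested on 12 neutrophils, and the named fold changes and list medians between groups that turn on it are given with and without it. Between 8 and 29 kept barcode sequences were shared by a pair of libraries, and none of these was a neutrophil barcode.

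The limits of the rule fell in a sparse range. S100a8+S100a9 took a median of 21.3% of a neutrophil's UMIs, and 174 of the 212 stood at 10% or more. At the lower edge, 3 neutrophils had a share between 1.10% and 1.53%, and just outside it 2 barcodes had 0.597% and 0.628% and 3 had 0.308% to 0.473%. Another 10 barcodes passed both S100a8+S100a9 limits but were left out for their neuron genes, and 3 for C1q. The neutrophils held 89.4% and 93.5% of all S100a8+S100a9 UMIs in CCI replicates 1 and 2, against 96.7% and 88.4% in CON replicates 1 and 2. At least 1 UMI of S100a8 was also found in some other cells. It was present in 6.33% to 15.2% of neurons, whose median was 10350.5 to 30253.5 UMIs, and in 2.60% to 4.61% of satellite glia, whose median was 4383 to 11831 UMIs. Shares at this level were read as background.

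Beside the genes of the rule, other neutrophil genes led. By the ratio of their level in neutrophils to that in all other kept barcodes, with the lowest ratio of the 4 libraries taken, the leading genes were Ngp, S100a9, Camp, S100a8, Ltf, Retnlg, Wfdc21, Itgb2l, Mmp8 and Mmp9, of which the rule had set S100a8 and S100a9. Retnlg, which encodes a resistin-like peptide secreted by mouse neutrophils, stood at 15674 and 12631 CPM (counts scaled to the non-mitochondrial UMIs of the summed cells) in CCI neutrophils, against 15288 and 15390 CPM in CON neutrophils, and at 1.75 to 4.77 CPM in the other barcodes of the 4 libraries. Ly6g, the surface antigen used to gate mouse neutrophils, stood at 400.5 and 464 CPM in CCI neutrophils, against 424 and 551 CPM in CON neutrophils, and at 0.0617 to 4.82 CPM in the other barcodes. Of the 212 cells, 192 held a UMI of Retnlg, 193 of Lcn2 (a siderophore-binding granule protein), 168 of Mmp9, 147 of Mmp8 (neutrophil collagenase), 135 of Ly6g and 98 of Csf3r, the receptor for the growth factor G-CSF.

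Most defining markers of the nearest cell types were at or near 0. Cd163, a macrophage receptor, had no UMI in any neutrophil (C1q was limited by the rule), Ccr2, a monocyte receptor, had 1 UMI in all, and all 4 eosinophil markers (Epx, Prg2, Siglecf and Ccr3) and 4 of 5 mast cell and basophil markers had none. The 8 monocyte markers summed to 1939 and 3932 CPM in CCI neutrophils, against 4149 and 4881 CPM in CON neutrophils, nearly all of it from Chil3, which immature neutrophils also make, and Ly6c2. Ly6c2 was present at 731 and 787 CPM in CCI neutrophils, against 528 and 2034 CPM in CON neutrophils. Markers of the ganglion's own cells were present. Genes fixed for non-immune types (satellite glia, Schwann cells, fibroblasts, pericytes, endothelium and neurons) took 1% or more of the UMIs in 36 of the 212 neutrophils. The 5 satellite glia markers summed to 4187 and 11324 CPM in CCI neutrophils, against 4111 and 630 CPM in CON neutrophils, and to 12142 to 30803 CPM in the other barcodes. The 4 endothelial markers summed to 618 and 178 CPM in CCI neutrophils, against 14 and 0 CPM in CON neutrophils.

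Neutrophils were rare in every library, and their shares in CCI and CON overlapped. They were 39 of 11155 kept barcodes in CCI replicate 1, or 0.350% (95% exact binomial interval 0.249% to 0.478%), and 77 of 10602 in CCI replicate 2, or 0.726% (0.574% to 0.907%). In the CON group they were 84 of 10743 in replicate 1, or 0.782% (0.624% to 0.967%), and 12 of 2613 in replicate 2, or 0.459% (0.238% to 0.801%). Each group thus had 1 library with a higher and 1 with a lower share, and the groups overlapped. The intervals cover counting error only. The mean share was 0.538% ± 0.266 in CCI and 0.621% ± 0.228 in CON (SD, n = 2 each), with an exact two-sided permutation p of 0.667, where the smallest p that 2 against 2 libraries allow is 0.333. Set against the C1q macrophages of the same library, there were 25.3 and 11.9 neutrophils per 100 macrophages in CCI, against 29.0 and 13.3 in CON.

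**Figure D1:**
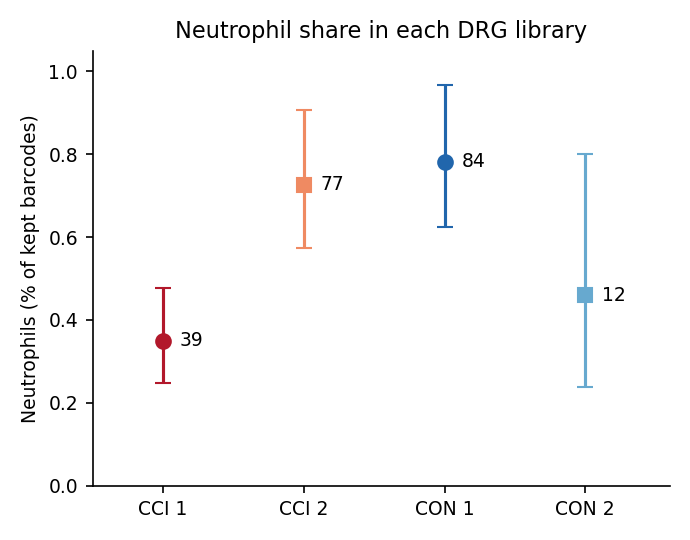
Share of neutrophils among the kept barcodes of each library in percent (vertical axis), with exact 95% binomial intervals and the number of neutrophils beside each point. The 2 CCI libraries on the left (0.350% and 0.726%) overlap the 2 CON libraries on the right (0.782% and 0.459%).

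The neutrophils spanned a range of maturity in both groups. To compare cells of unequal depth, each cell was thinned to 1000 UMIs, which left out 1 cell of CCI replicate 2. A thinned cell was called Camp+Ngp-high with at least 10 UMIs of both genes together, and Cxcr2+Il1b-carrying with at least 2 UMIs of that pair. Camp+Ngp-high cells were 16 of 39 and 47 of 76 in CCI, against 41 of 84 and 7 of 12 in CON, which is 51.4% ± 14.7 in CCI and 53.6% ± 6.73 in CON (SD, n = 2 each, exact permutation p = 1). Cxcr2+Il1b-carrying cells were 13 of 39 and 30 of 76 in CCI, against 27 of 84 and 8 of 12 in CON, which is 36.4% ± 4.34 in CCI and 49.4% ± 24.4 in CON (SD, n = 2 each, exact permutation p = 1). The spread of the CON value came from the 12 cells of replicate 2. Without thinning, Cxcr2+Il1b-carrying cells were 26 of 39 and 48 of 77 in CCI, against 47 of 84 and 8 of 12 in CON. A UMI of Cxcr2 was held by 42.9% to 66.7% of neutrophils and by 0.177% to 1.15% of neurons. A UMI of Camp was held by 56.4% to 68.8% of neutrophils and by 2.75% to 7.23% of neurons, at the median depths given above. Il1b was carried by 12.99% to 47.8% of C1q macrophages, which make it themselves.

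The 2 pairs of genes were found mostly in different cells. Of the 211 thinned cells, 91 were Camp+Ngp-high only, 58 carried Cxcr2+Il1b only, 20 met both limits and 42 neither. Cxcr2+Il1b was carried by 20 of the 111 Camp+Ngp-high cells and by 58 of the other 100. The classes are ranges along a scale rather than types, since 32 cells lay between 5 and 19 Camp+Ngp UMIs. Across the 211 cells, Spearman's rho of Camp+Ngp with Cxcr2+Il1b was -0.60, with the secondary granule gene Ltf 0.84, with Retnlg -0.50 and with the tertiary granule gene Mmp8 0.02. Camp and Ngp followed each other at a rho of 0.94. The cells share libraries and, after thinning, a fixed total in which one gene's share displaces another's, and Camp+Ngp also rose with the UMI count before thinning (rho 0.68), so these are descriptions. The sign of the first relation was negative in each library, with rho between -0.86 in the 12 cells of CON replicate 2 and -0.62.

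**Figure D2:**
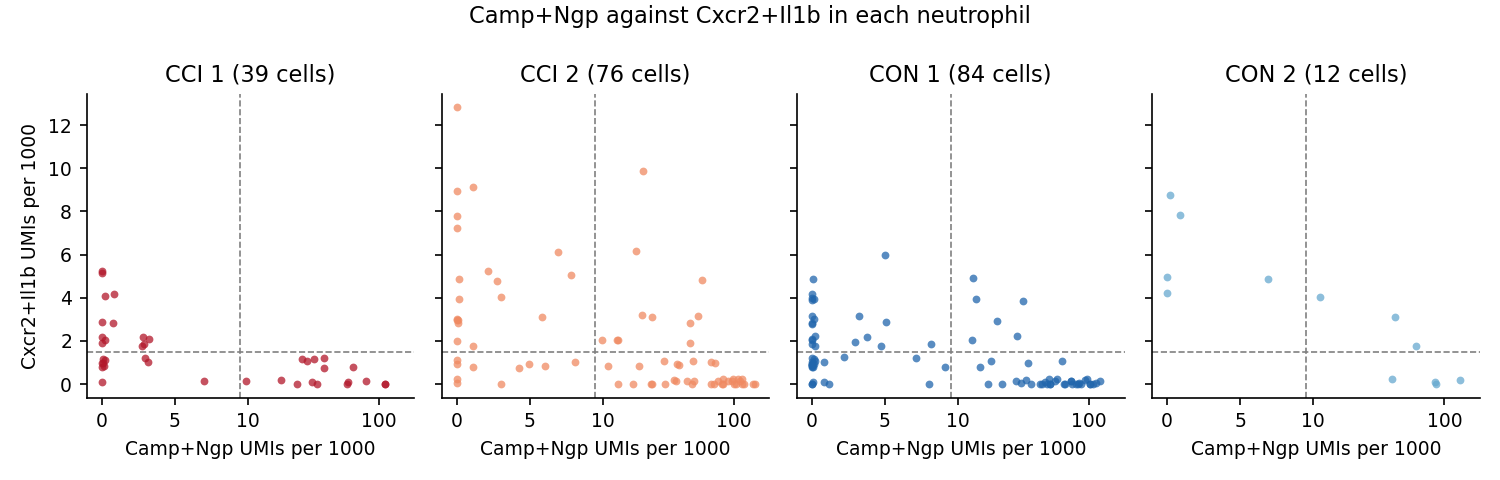
Camp+Ngp UMIs (horizontal axis, linear below 10 and log above) against Cxcr2+Il1b UMIs (vertical axis) per neutrophil thinned to 1000 UMIs, 1 panel a library, with a small jitter. Dashed lines mark the limits of 10 and 2 UMIs, and most cells lie along one axis or the other, with 20 of 211 past both limits.

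Genes of the secondary granules went with Camp and Ngp. Cells were split by Camp+Ngp at 1% of their full UMIs into 15, 45, 42 and 6 high cells and 24, 32, 42 and 6 low cells (CCI replicates 1 and 2, CON replicates 1 and 2), and UMIs were summed per class and library. These levels describe classes cut from the same cells and were not tested. The classes also differed in depth and in non-immune markers. Outside 6 cells rich in Elane+Mpo, described below, 28 of 103 low and 6 of 103 high cells held 1% or more non-immune markers. Their median depths were 2272 UMIs in low and 4162 UMIs in high cells. Of 4903 genes with at least 20 UMIs, 7.95% were higher and 15.2% lower in the high class of all 4 libraries. Among the 11 other secondary granule genes counted, 9 were higher in all 4 and none lower, the exceptions being Hp and Olfm4. Ltf, which encodes the iron-binding lactoferrin, stood at 6888 and 6169 CPM in high and 140 and 20.2 CPM in low cells of the CCI libraries, and at 6172 and 8989 CPM in high and 66.3 and 0 CPM in low cells of the CON libraries. Chil3, a chitinase-like protein, stood at 2078 and 4190 CPM in high and 31.1 and 30.2 CPM in low cells of CCI, and at 5058 and 4146 CPM in high and 365 and 40.7 CPM in low cells of CON. Both genes were thus nearly confined to one class in these libraries. Lcn2 differed less, with 9633 to 12806 CPM in high and 1748 to 3573 CPM in low cells of the 4 libraries. Cebpe, the transcription factor required for secondary granules, stood at 205 to 504 CPM in high and 15.5 to 122 CPM in low cells.

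Genes of the mature and activated neutrophil took the other side. Of 21 such genes, 18 were lower in the Camp+Ngp-high class of all 4 libraries, the exceptions being Fpr1, Fpr2 and G0s2. Il1b stood at 128 and 430 CPM in high and 1662 and 2156 CPM in low cells of CCI, and at 253 and 639 CPM in high and 1480 and 6830 CPM in low cells of CON. Csf3r stood at 77.0 to 96.9 CPM in high and 311 to 894 CPM in low cells, and Cxcr2 at 88.3 to 155 CPM in high and 262 to 813 CPM in low cells. Ccl6, a chemokine, stood at 0 to 96.2 CPM in high and 1159 to 1667 CPM in low cells. Cxcl2, a chemokine that draws neutrophils through Cxcr2, stood at 0 to 64.1 CPM in high and 504 to 1667 CPM in low cells. Trem1, an activating receptor, and Selplg, the ligand by which leukocytes roll on selectins, were also on the low side in each library. 

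Tertiary granule genes did not move as a set. Of the 9 counted, 3 were lower and 1 higher in the high class of all 4 libraries. Retnlg was lower in the high class, with 5105 to 8869 CPM against 22934 to 36587 CPM in the low class, and so were Slpi, an inhibitor of neutrophil elastase, and Adam8. Mmp8 and Mmp9 were at like levels in both, with 1048 to 1569 CPM of Mmp8 in high and 1237 to 2439 CPM in low cells. Of 6 genes of the NADPH oxidase, which makes the oxidative burst, Cybb, Cyba and Ncf4 were higher in the high class of all 4 libraries and 1 was lower. Over all genes counted these shares were 7.95% and 15.2%. Cybb stood at 1296 to 2325 CPM in high and 109 to 854 CPM in low cells. Cebpb, the factor of emergency granulopoiesis, was on the low side, with 532 to 1879 CPM in high and 1237 to 3374 CPM in low cells. Arg1, Il10 and Ccl5 had no UMI in any neutrophil, and Siglecf, reported on aged or tumour neutrophils of mice, had none either.

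**Figure D3:**
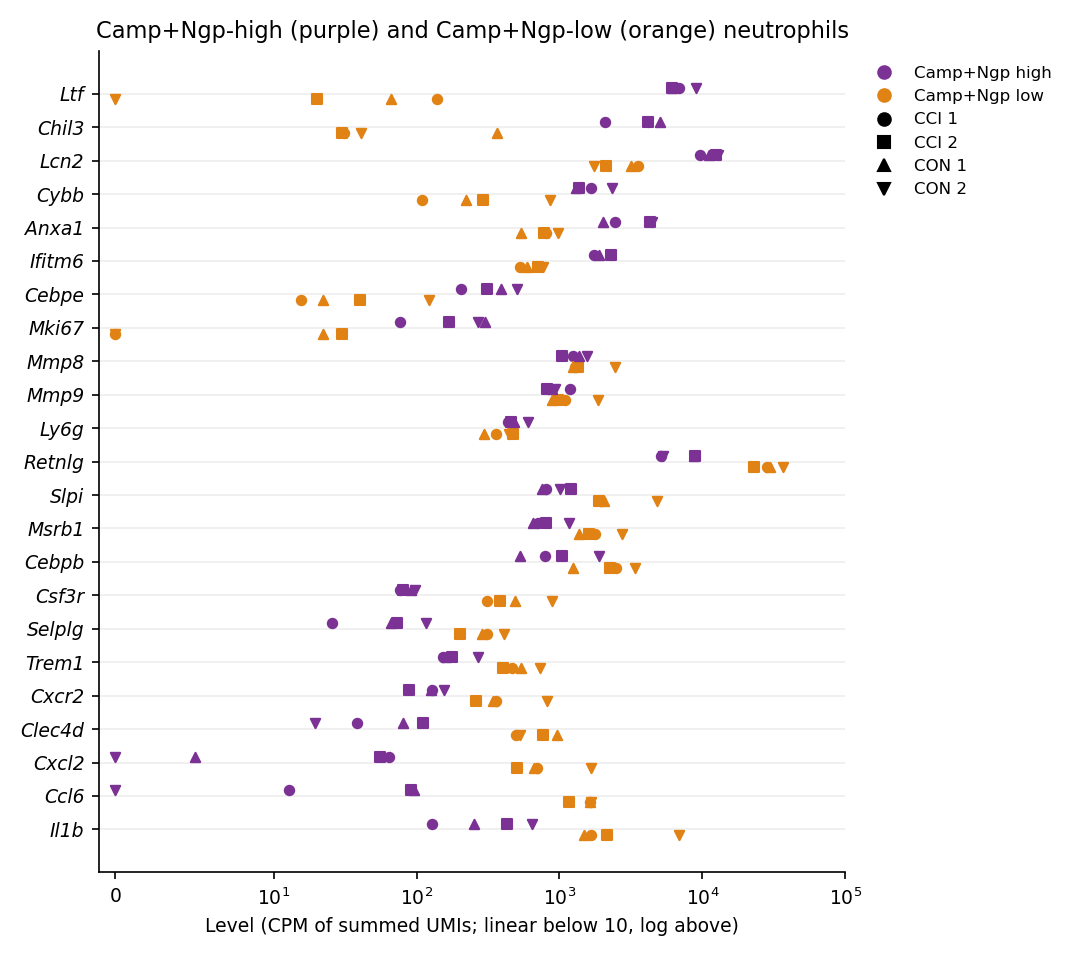
Levels of 23 genes in Camp+Ngp-high (purple) and Camp+Ngp-low (orange) neutrophils, in CPM of summed UMIs (linear below 10, log above), with 1 symbol a library. Ltf, Chil3, Lcn2, Cybb, Anxa1, Ifitm6 and Cebpe are higher in the high class of all 4 libraries, Mmp8 and Mmp9 overlap, and the genes from Retnlg down are lower in it.

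A few cells were rich in the primary granule genes Elane and Mpo. Elane, neutrophil elastase, and Mpo, myeloperoxidase, came to 10 or more UMIs in 6 of the 212 cells, 1 and 4 in the CCI libraries against 1 and 0 in the CON libraries. All 6 held Mki67, a gene of dividing cells, and their median was 10644.5 UMIs, against 4162 in the other Camp+Ngp-high and 2272 in the other Camp+Ngp-low cells. In 5 of the 6, Camp+Ngp took 3.71% to 10.3% of the UMIs and Ltf was present. The remaining cell, in CCI replicate 2, held 191 UMIs of Elane, 135 of Mpo, 1 of Ngp and none of Camp, with 226 of S100a8 but 34 of S100a9. Its S100a8+S100a9 share of 1.53% was among the 3 lowest of all neutrophils, while in the other 5 the share was 15.5% to 29.1%. That single cell held 96.4% of the Mpo and 68.2% of the Elane UMIs of CCI replicate 2.

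Mki67 was found mostly in Camp+Ngp-high cells, which were also the deeper ones. It was carried by 1 and 11 neutrophils in the CCI libraries, against 11 and 1 in the CON libraries. Among the 206 cells without primary granule genes, 17 of 103 Camp+Ngp-high and 1 of 103 Camp+Ngp-low cells held it, with the median depths just given. Mki67 stood at 76.9 and 169 CPM in high and 0 and 30.2 CPM in low cells of CCI. In CON it stood at 304 and 271 CPM in high and 22.1 and 0 CPM in low cells. The low class of CCI replicate 2 included the cell described above with 191 UMIs of Elane and none of Camp. That cell held 17010 UMIs, 3 of them of Mki67. The low-class values of that library, also for the proliferation genes below, are thus not those of mature cells alone. In CON replicate 1, a cell of 4384 UMIs held, when thinned to 1000, 14 UMIs of proliferation genes, 9 of Chil3 and none of Camp or Ngp. The low class of CON replicate 1 may thus not be of mature cells alone either. Of 15 proliferation genes, 8 were higher in the high class of all 4 libraries and none lower. Summed over the list, however, the level was 2476 and 4654 CPM in high and 2470 and 2983 CPM in low cells of CCI, and 5139 and 5134 CPM in high and 3370 and 1463 CPM in low cells of CON, so CCI replicate 1 showed next to no difference. At 1000 UMIs a cell, Spearman's rho of Camp+Ngp with the proliferation genes was 0.11 over the 211 cells and between -0.08 (CCI replicate 1) and 0.23 (CCI replicate 2) within libraries, which is weak. In CCI replicate 1 and CON replicate 2 all Mki67 UMIs came from 1 cell each. Genes of other blood and marrow lineages were also found in kept barcodes of the same libraries, which were counted by UMIs alone and not typed further. Erythroid markers also summed to 193 and 1855 CPM in C1q macrophages of CCI, against 4814 and 4556 CPM in those of CON. At least 3 UMIs of B-lineage genes were held by 27 and 67 barcodes in CCI, against 50 and 17 in CON, and at least 50 UMIs of erythroid genes by 152 and 60 barcodes in CCI, against 318 and 5 in CON. Whether the neutrophils lay in the ganglion or came with blood or marrow was not tested.

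Interferon-response genes separated the libraries without following the groups. Isg15, a ubiquitin-like protein made on interferon signalling, stood at 766 and 51.2 CPM in CCI neutrophils, against 86.8 and 1614 CPM in CON neutrophils, so that CCI replicate 1 and CON replicate 2 were high and the other library of each group low. A UMI of Isg15 was held by 19 of 39 and 9 of 77 cells in CCI, against 14 of 84 and 10 of 12 in CON, and the highest cell of CON replicate 2 held 43.1% of its Isg15 UMIs. The log2 fold change was -1.32 (SE 1.29, edgeR adjusted p = 0.999), but 2.11 without CON replicate 2 and -2.40 without CON replicate 1. Rsad2, an antiviral enzyme also called viperin, was held by 11 of 39 and 8 of 77 cells in CCI, against 7 of 84 and 7 of 12 in CON. Summed over the 18 interferon genes, the level was 6934 and 4269 CPM in CCI neutrophils, against 3382 and 10182 CPM in CON neutrophils. C1q macrophages of the same libraries stood in the same order, with 4049 and 2090 CPM in CCI, against 1583 and 6675 CPM in CON. Isg15 was on the Camp+Ngp-low side in each library, with 151 to 4390 CPM in low and 10.1 to 359 CPM in high cells.

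No gene passed the test between CCI and CON neutrophils. UMIs were summed per library, and of 2957 genes fitted by quasi-likelihood in edgeR 0 had a Benjamini-Hochberg adjusted p under 0.05 (0% called in either direction). At an unadjusted p under 0.05, edgeR gave 55 genes, or 1.86%, of which 50 (1.69%) were higher and 5 (0.169%) lower. DESeq2, fitted without that filter on low counts, gave 84 of 13683 genes. At an adjusted p under 0.05, DESeq2 called 1 gene, Igfbp7. The CCI and CON libraries did not overlap at 465 genes (15.7%) that were higher and 347 (11.7%) that were lower in CCI. The count depended on single libraries: without CON replicate 1 it was 196, without CON replicate 2 it was 51, and without CCI replicate 1 or 2 it was 7 or 6. It was 0 of 2292 genes without barcodes that held 1% or more non-immune markers, and 27 of 13683 with no filter on low counts.

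The genes of maturity had large spreads. Scaled by TMM, Camp stood at 16668 and 31519 CPM in CCI neutrophils, against 27884 and 37543 CPM in CON neutrophils (log2 fold change -0.44, SE 0.46), and Ngp at 13093 and 29534 CPM in CCI, against 22868 and 31697 CPM in CON (-0.36, SE 0.49). The groups overlapped for both genes. Cxcr2 stood at 242 and 157 CPM in CCI, against 211 and 470 CPM in CON (-0.72, SE 0.56), and its fold change was -0.11 without CON replicate 2 and -1.32 without CON replicate 1. Il1b stood at 859 and 1038 CPM in CCI, against 693 and 3376 CPM in CON (-1.08, SE 0.70), and its fold change was 0.46 without CON replicate 2, whose level was the only one to stand apart. The edgeR adjusted p of these 4 genes was 0.999, and over the alternative settings it ran from 0.00243 to 1, the lowest for Il1b when CON replicate 1 was left out. Ltf stood at 4007 and 5264 CPM in CCI, against 4613 and 7794 CPM in CON, and overlapped (-0.42, SE 0.48). Retnlg stood at 16374 and 14695 CPM in CCI, against 16582 and 19704 CPM in CON, without overlap but by less than its error (-0.22, SE 0.42).

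**Figure D4:**
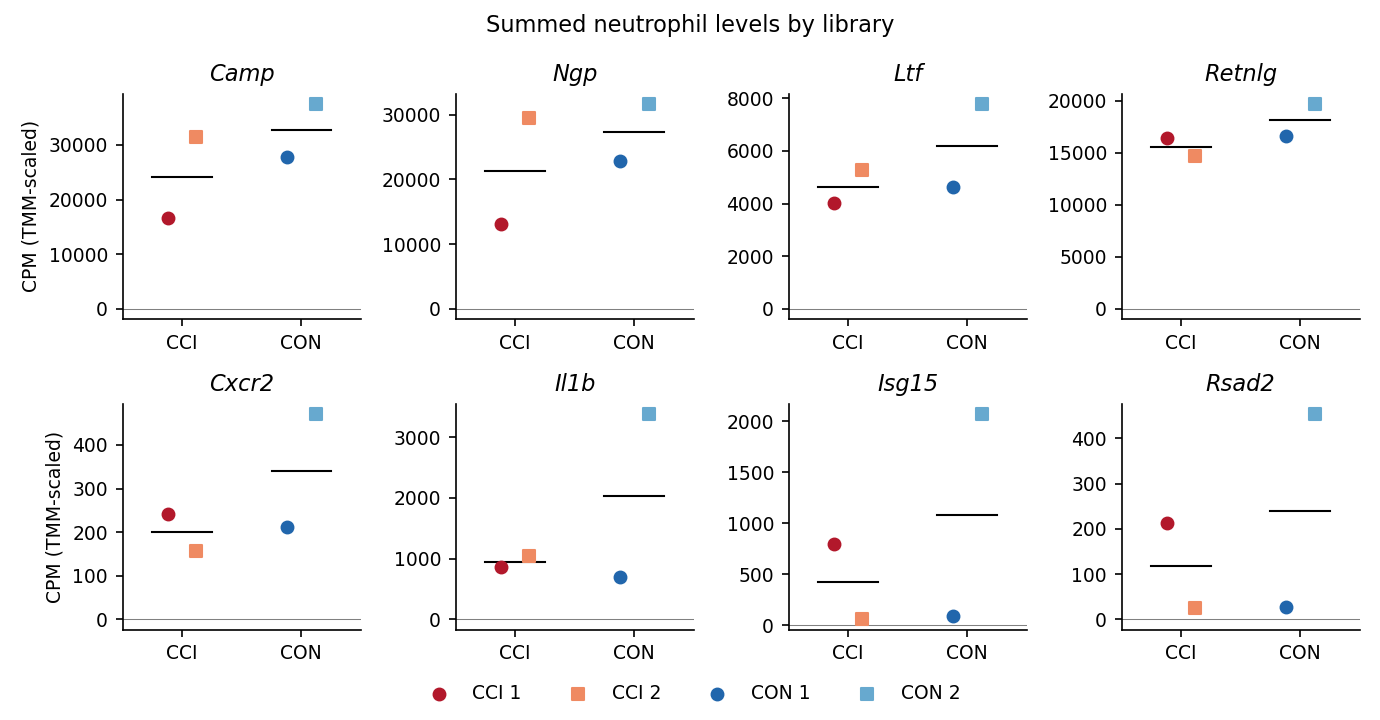
Levels of 8 genes summed over the neutrophils of each library, in TMM-scaled CPM on linear axes, CCI on the left and CON on the right, with the mean of the 2 libraries as a bar. CON replicate 2 is high for Il1b and Cxcr2, and Isg15 and Rsad2 are high in CCI replicate 1 and CON replicate 2.

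Across the lists, no member passed the edgeR test between groups. The median log2 fold change was -0.28 over 13 secondary granule genes, -0.45 over 9 tertiary granule genes, -0.47 over 21 mature and activated genes and -0.31 over 13 interferon genes, beside -0.01 over all 2957 genes. Without CON replicate 2 these medians were -0.09, -0.09, -0.05 and 1.48, beside 0.03 over all genes. For the tertiary list, 5 of 9 genes were lower without overlap and none higher, and for the 17 chemokine and adhesion receptors tested, 6 were lower and 1 higher (median -0.55, and -0.05 without CON replicate 2), beside the shares of 11.7% and 15.7% over all genes. CON replicate 2, with 12 cells, had the highest level of many of these genes, as for Slpi, with 1380 and 1615 CPM in CCI, against 1262 and 2856 CPM in CON. The 5 primary granule genes tested had a median of 3.22, and Mpo, Elane and Prtn3 had an unadjusted p under 0.05. They rested on the few cells described above: all Elane UMIs of CCI replicate 1 came from 1 cell, 68.2% of those of CCI replicate 2 from another, and CON replicate 2 had none. Elane had 48 and 280 UMIs in CCI, against 24 and 0 UMIs in CON (edgeR adjusted p = 0.838). With 1 library left out its fold change ran from 2.57 to 9.74, and the edgeR adjusted p was under 0.05 in each case but without CCI replicate 2 (0.647).

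Among the genes with an unadjusted p under 0.05, those named next were chosen after their values were seen. Igfbp7, Ly6c1 and Apod, genes of endothelium and connective tissue, were held by few barcodes. Igfbp7 had 124 and 64 UMIs in CCI, against 1 and 0 UMIs in CON, and a single barcode held 93.5% of those of CCI replicate 1 (edgeR adjusted p = 0.317, and 5.8e-14 to 0.016 with 1 library left out). Apod had 286 and 19 UMIs in CCI, against 6 and 0 UMIs in CON, with 97.2% of those of CCI replicate 1 in 1 barcode. Ly6c1 is itself one of the endothelial markers summed above. The 4 fibroblast markers summed to 1707 and 48.5 CPM in CCI neutrophils, against 38.2 and 26.2 CPM in CON neutrophils, and 1 barcode held 152 of the 158 UMIs of Dcn in CCI replicate 1. Without barcodes of non-immune markers no gene was called, and 24 had an unadjusted p under 0.05 in edgeR. Gal, a neuropeptide of injured sensory neurons, was spread thinly over many barcodes. It had 72 and 50 UMIs in 33 of 39 and 30 of 77 CCI neutrophils, against 8 and 0 UMIs in 7 of 84 and 0 of 12 CON neutrophils (0 of 12 cells, which allows a share of cells with a UMI of up to 25%, not a limit on cells expressing it), and stood at 2129 and 2176 CPM in the other barcodes of CCI, against 143 and 134 CPM in those of CON. The part of this wider Gal RNA in the neutrophil values was not tested.

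Egr1 and Jun, immediate early transcription factors that are also induced by tissue dissociation, were higher in both CCI libraries without passing the test. Egr1 stood at 330 and 285 TMM-scaled CPM in CCI neutrophils, against 30.1 and 33.6 CPM in CON neutrophils (log2 fold change 3.28, SE 0.58, edgeR adjusted p = 0.317), and Jun at 550 and 1016 CPM in CCI, against 109 and 151 CPM in CON (2.64, SE 0.58, edgeR adjusted p = 0.621). Egr1 was held by 6 of 39 and 12 of 77 cells in CCI, against 8 of 84 and 2 of 12 in CON, and 1 cell held 57.8% of the Egr1 UMIs of CCI replicate 1. Without barcodes of non-immune markers the fold change was 1.89 for Egr1 and 1.93 for Jun (edgeR adjusted p = 1 for both). With 1 library left out, the log2 fold change ran from 3.11 to 3.34 for Egr1 and from 2.09 to 3.02 for Jun. Such fits leave 1 library in a group. The satellite glia markers Glul, with 286 and 141 CPM in CCI, against 60.3 and 16.8 CPM in CON, and Fabp7, with 330 and 1414 CPM in CCI, against 267 and 16.8 CPM in CON, were also higher in CCI at an unadjusted p under 0.05. Fos, of the same class, stood at 1226 and 1546 CPM in CCI, against 373 and 1512 CPM in CON (0.59, SE 0.66). The CON libraries stood apart from each other, and without CON replicate 2 its fold change was 1.90 (edgeR adjusted p = 0.0081). Of the 15 immediate early and heat shock genes, none passed. Without overlap, 3 were higher and none lower, beside 15.7% higher and 11.7% lower over all 2957 genes. The median log2 fold change of the 15 was 0.49 (1.02 without CON replicate 2 and -0.08 without CON replicate 1). Summed over the list, the level was 8424 and 6433 CPM in CCI neutrophils, against 4694 and 5839 CPM in CON neutrophils.

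The effect of CCI differed between neutrophils and the C1q macrophages of the same libraries for a set of cycling and immediate early genes. Counts of both classes were fitted together with the library as a block, over 154 and 646 macrophages in CCI and 290 and 90 in CON, and the difference of the 2 effects was tested for 7265 genes with edgeR. It passed an adjusted p under 0.05 for 130 genes (1.79%), with the neutrophil effect above the macrophage effect for 82 (1.13%) and below it for 48 (0.661%). Of 17 proliferation genes, 9 were on the lower side (Mki67, Top2a, Cdk1, Ccnb2, Ccna2, Birc5, Ube2c, Rrm2 and Hmgb2) and none on the upper. Mki67 stood at 42.2 and 132 CPM in CCI neutrophils, against 215 and 184 CPM in CON neutrophils, and at 137 and 135 CPM in CCI macrophages, against 14.7 and 1.62 CPM in CON macrophages (difference of the log2 effects -5.12, SE 0.68, edgeR adjusted p = 9.8e-11). Ube2c, which drives mitotic exit, stood at 7.03 and 108 CPM in CCI neutrophils, against 170 and 131 CPM in CON neutrophils, and at 191 and 113 CPM in CCI macrophages, against 8.60 and 0 CPM in CON macrophages (edgeR adjusted p = 1.3e-12). For both genes CCI and CON overlapped in neither class, with CCI the lower in neutrophils and the higher in macrophages. In CCI replicate 1 and in CON replicate 2, 1 neutrophil held all Mki67 UMIs, and likewise 1 held all Ube2c UMIs.

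The immediate early genes lay on the other side. Of 15 genes of the immediate early and heat shock list, 6 had the neutrophil effect above the macrophage effect (Jun, Egr1, Fos, Dnajb1, Hspa1a and Hspa1b) and none below. Markers of other cell types lay on the same side: 4 of 5 satellite glia markers (median difference 2.96), 3 of 3 endothelial markers (6.85), 2 of 4 fibroblast markers, 3 of 4 dendritic and antigen-presenting markers and 3 of 5 erythroid markers were above, and none of these lists had a member below. Egr1 stood at 316 and 245 CPM in CCI neutrophils, against 27.8 and 26.2 CPM in CON neutrophils, and at 321 and 320 CPM in CCI macrophages, against 590 and 1470 CPM in CON macrophages (difference 4.66, SE 0.69, edgeR adjusted p = 9.3e-09). Jun stood at 527 and 873 CPM in CCI neutrophils, against 101 and 118 CPM in CON neutrophils, and at 1624 and 1149 CPM in CCI macrophages, against 2877 and 4302 CPM in CON macrophages (difference 3.99, SE 0.61, edgeR adjusted p = 5.1e-08). The CCI levels were higher than the CON levels in neutrophils and lower in macrophages. Outside these lists, Clec4e, Adam8 and Ccr1 had the neutrophil effect below the macrophage effect. Clec4e, a receptor for fungal and dead-cell ligands, stood at 316 and 437 CPM in CCI neutrophils, against 295 and 289 CPM in CON neutrophils, and at 7.22 and 92.6 CPM in CCI macrophages, against 0 and 6.48 CPM in CON macrophages (edgeR adjusted p = 0.0033). Without barcodes that held 1% or more non-immune markers, 70 genes passed in place of 130, 33 without CCI replicate 1 and 81 without CCI replicate 2, and after thinning every cell to 1000 UMIs 1 did. The median UMI count was 2213.5 and 5783.5 in CCI macrophages, against 2703 and 7059 in CON macrophages.

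**Figure D5:**
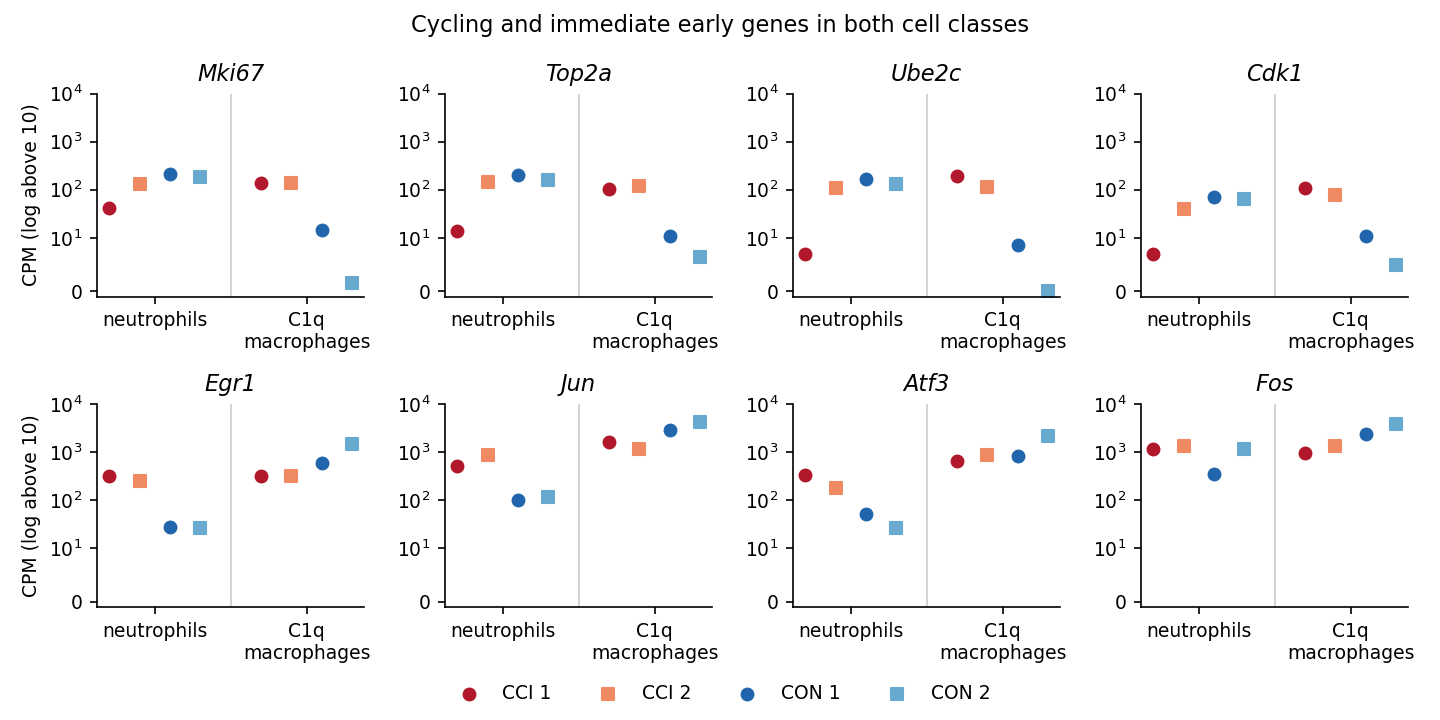
Levels of 4 cycling genes (top) and 4 immediate early genes (bottom) in neutrophils and in C1q macrophages, in CPM of summed UMIs (linear below 10, log above), with CCI libraries left of CON libraries in each class. Mki67 stands at 137 and 135 CPM in CCI macrophages, against 14.7 and 1.62 CPM in CON macrophages, while the neutrophil values of both groups lie between 42.2 and 215 CPM.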

How the data were processed

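Droplet libraries of dissociated L4 and L5 DRGs, 2 of CCI and 2 of CON mice, were used. The deposited matrices hold UMI counts per gene and barcode. Reads had been cleaned by the authors (fastp) and mapped to mm10 by Cell Ranger, 5.0.1 in the matrix headers, and they downsampled libraries and filtered cells (more than 500 genes, under 20% mitochondrial UMIs) after that step, so depth here is unequal. The labels name a collagenase digestion and the methods Liberase with papain.

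Levels were CPM over UMIs outside 13 mitochondrial genes. UMIs were summed per library and tested with edgeR 4.0.16 (TMM, filterByExpr, quasi-likelihood test) in R 4.3.3, with DESeq2 1.42.0 as an alternative. Among barcodes outside the S100a8+S100a9 limits, neurons had at least 20 UMIs of Snap25+Uchl1+Tubb3, C1q macrophages at least 6 UMIs of C1qa+C1qb+C1qc and satellite glia at least 5 UMIs of Fabp7, the last 2 classes with fewer neuron genes. Intervals are exact binomial (95%, scipy 1.17.1), and a count of 0 was read as up to 3 counts. The test script was tested on simulated data.

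The members and lists were chosen with earlier results of these data known. Genes were named as the rule's genes, the 10 most neutrophil-specific genes at 100 CPM or more, members of the lists and the 5 largest differences from macrophages at 5 log2 CPM or more. No gene passed the CCI against CON test, so none was named from it by rank. The 2 settings without deep or Elane+Mpo-rich barcodes, and the macrophage comparison without barcodes of non-immune markers, were added after the data had been seen. One listed gene is not reported here.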

Additional observations from a re-analysis of the deposited data

Results flagged for a closer look

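The effect of CCI differed between neutrophils and C1q macrophages, by the edgeR test of the difference itself, for the genes given here as neutrophil minus macrophage on the log2 scale. The difference was -5.12 for Mki67, -4.79 for Top2a, -5.47 for Birc5, -6.10 for Ube2c and -4.59 for Cdk1, all cycling genes. With 1 library left out, the difference ran from -7.11 to -4.52 for Mki67, from -7.20 to -4.07 for Top2a and from -10.82 to -4.53 for Birc5. It ran from -10.86 to -5.10 for Ube2c and from -6.93 to -3.93 for Cdk1. In CCI replicate 1 each of these 5 genes had its UMIs in 1 neutrophil (1 to 6 UMIs). The same held in CON replicate 2 (5 to 14 UMIs), so without CON replicate 1 the CON neutrophil level of each gene rests on 1 cell. After thinning, Birc5 was at -1.99 (edgeR adjusted p = 1) and Ube2c at -5.67 (edgeR adjusted p = 0.128), and the other 3 were not among the genes tested. The difference was 4.66 for Egr1 and 3.99 for Jun. Egr1 was at 3.13 after thinning (edgeR adjusted p = 0.302) and Jun at 3.32 without CCI replicate 2 (edgeR adjusted p = 0.0715).

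The 5 largest differences among the better expressed genes were fitted against CON neutrophils at 0, so their size depends on the prior count and is no bound. They were 10.96 for Flt1, 9.74 for Cxcl12, 9.53 for Itm2a, 9.38 for Iigp1 and 8.89 for H2-Aa. Without CCI replicate 1, the edgeR adjusted p was 0.0605 for Cxcl12, 0.238 for Itm2a and 0.163 for H2-Aa, and H2-Aa also missed the threshold without CON replicate 1 (edgeR adjusted p = 0.061) and after thinning (edgeR adjusted p = 1). Flt1, an endothelial receptor, had 20 and 16 UMIs in CCI neutrophils, held by 1 and 2 barcodes, against 0 and 0 UMIs in CON neutrophils. Cxcl12 had 16 and 15 UMIs in CCI neutrophils, held by 1 and 2 barcodes, and Itm2a 19 and 9 UMIs, held by 4 and 5. Iigp1, an interferon-induced GTPase, had 11 and 21 UMIs, held by 2 and 6 barcodes, and H2-Aa, an MHC class II gene of antigen-presenting cells, 6 and 11 UMIs, held by 1 and 2.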

How the results depend on the processing

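The count of genes that changed between CCI and CON neutrophils was 0 and stayed 0 under upper-quartile factors, a stricter barcode filter, S100a8+S100a9 at 2% or more, thinning, the replicate block, and without barcodes of non-immune markers, above 10000 UMIs or rich in Elane+Mpo. It was 27 with no filter on low counts, 1 with DESeq2 and 6 to 196 when 1 library was left out, the highest without CON replicate 1. The replicate numbers were not taken to pair libraries across groups. Same-numbered libraries deviated together at r = 0.17. With 2 libraries a group this is 1 free value, which cannot show pairing or its absence. The replicate block gave 0 genes (78 at an unadjusted p under 0.05, edgeR). The count of genes that differed from macrophages was 130 and became 70 without barcodes of non-immune markers, 1 after thinning and 33 to 166 when 1 library was left out.

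Of the named fold changes, Cxcr2 became 0.20 after thinning, and Fos -0.35 without barcodes of non-immune markers and -0.12 after thinning. With 1 library left out, Ngp ran from -1.08 to 0.14 (positive without CCI replicate 1), Il1b from -1.87 to 0.46 and Ltf from -0.79 to 0.017 (both positive without CON replicate 2), and Fos from -0.17 without CON replicate 1 to 1.90 without CON replicate 2. Isg15 ran from -4.10 without CCI replicate 1 (edgeR adjusted p = 0.286) to 2.11 without CON replicate 2 (edgeR adjusted p = 0.0077), and was -2.40 without CON replicate 1 (edgeR adjusted p = 4.0e-05). Of these values, Il1b without CON replicate 1 (edgeR adjusted p = 0.0024) and Fos without CON replicate 2 (edgeR adjusted p = 0.0081) also passed. DESeq2 moved the median of all genes to 0.16, against -0.01 in edgeR. The cause of these changes was not tested.

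The mean neutrophil share ran from 0.350% to 0.726% in CCI and from 0.459% to 0.782% in CON when 1 library was left out. The Camp+Ngp-high share of CON became 61.9% with a limit of 0.5% and 45.8% with a limit of 2%. The Cxcr2+Il1b-carrying share of CCI became 64.5% without thinning and 64.2% with a limit of 1 UMI. With 1 library left out, the Camp+Ngp-high share ran from 41.0% to 61.8% in CCI and from 48.8% to 58.3% in CON, and the Cxcr2+Il1b-carrying share from 33.3% to 39.5% in CCI and from 32.1% to 66.7% in CON. Depth limits single genes, as CON replicate 2 gave 77042 UMIs from 12 cells.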

Other observations

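Chemokines of the neutrophils differed in the cells that held them. Ccl6 was confined almost wholly to Camp+Ngp-low cells of these libraries, with 1647 and 1159 CPM in low cells of CCI, against 1635 and 1667 CPM in low cells of CON. Cxcl10, a chemokine induced by interferon, had 0 and 54 UMIs in CCI, held by 0 and 11 cells, against 10 and 0 UMIs in CON, held by 4 and 0 cells. The 2 libraries without a UMI were those highest in Isg15. Their 0 of 39 and 0 of 12 cells allow shares of cells with a UMI of up to 7.69% and 25%. The shares were 14.3% in CCI replicate 2 and 4.76% in CON replicate 1, so these counts cannot show absence. Ccl4 had 38 and 4 UMIs in CCI, against 21 and 2 UMIs in CON, and 1 cell held 71.1% of those of CCI replicate 1. Olfm4, which marks a subset of mouse neutrophils, had 0 and 70 UMIs in CCI, held by 0 and 6 cells, against 36 and 0 UMIs in CON, held by 4 and 0 cells. For Cxcl10 and Olfm4, CCI replicate 2 and CON replicate 1, the libraries with most neutrophils, were the ones with any UMI. The 0 counts of Olfm4 allow the same shares as those of Cxcl10. H4c4, a histone gene chosen after its values were seen, had 2 and 5 UMIs in CCI, against 28 and 8 UMIs in CON.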
